A study of Homo sapiens with 20 samples.

Results

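The late step of a leucine time course was examined in THLE-3, a cell line made from adult human liver epithelium by expressing the large T antigen of SV40. Cells in medium with 2.0 mM leucine (high leucine) were taken at 120 min and at 480 min, and the step is the change from the earlier to the later time. Of the 20 arrays of the series, 4 carry this step, chosen by their titles: 2 at 480 min and 2 at 120 min, with 1 array of each time from the first experiment and 1 from the second, so that the arrays pair by experiment. The other groups used here are the same line in 0.1 mM leucine (low leucine) at 120 and 480 min, with 2 arrays each, and high leucine at 0 min, with 2 arrays. The fit draws its estimate of the spread from all 10 groups, so low leucine at 0 min and both media at 30 and 60 min, with 2 arrays each, enter it as well, and the plots of time courses show them. All groups share the cell line, and no other agent is named in the labels. How the cells were grown before 0 min is not in the labels, nor is it said that each experiment had its own culture. The p-values therefore reflect the spread among these samples alone, and that spread may be technical. Expression was read on the A array of the Affymetrix HG-U133 set, and all levels below are deposited intensities in arbitrary units. Probes differ in how well they bind, so levels of different genes are not compared.

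Cells that run short of an amino acid accumulate uncharged transfer RNA, which activates the kinase GCN2. GCN2 phosphorylates the initiation factor eIF2, general translation falls, and translation of the transcription factor ATF4 rises. ATF4, paired with C/EBP factors, then drives genes for amino acid synthesis and import and for aminoacyl-tRNA synthetases; the set is called the amino acid response. Supplying amino acids lowers this programme and activates the kinase complex mTORC1, which promotes protein and lipid synthesis, the latter in part through the sterol-regulated SREBP factors.

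The experiments differed from each other more than the groups did. A principal component with 71.8% of the variance set the 10 arrays of one experiment apart from the 10 of the other. Arrays of the same experiment correlated at 0.97 to 0.996 and arrays of different experiments at 0.91 to 0.939. The step was therefore fitted with the experiment as a block, in 1 limma model over all 20 arrays, and a gene was called at an adjusted p (Benjamini-Hochberg) under 0.05. Without the block most calls were lost, and the counts without it are given beside the gene groups. Mean array intensity lay between 761.8 and 862.6 units over the series. The filter on low signal was passed by 10 of 19 hepatocyte markers, 6 of 12 biliary and epithelial markers and 13 of 14 stellate and fibroblast markers. KRT18, VIM and SPARC were among those that passed, and ALB, the defining hepatocyte product, was not. The summed intensity of 19 hepatocyte markers was 7812 and 8693 units at 120 min and 7772 and 8185 at 480 min, in the first and second experiment.

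Between 120 and 480 min in high leucine, genes of the amino acid response and of the aminoacyl-tRNA synthetases fell, and genes of sterol synthesis and several heat shock chaperones rose. Of 8280 genes tested, 165 rose (1.99%) and 93 fell (1.12%). By probe set, 270 rose and 147 fell of 13329, a share of 64.7% higher, which became 76.2% on values as deposited and 76.7% after median centring. All 417 called probe sets changed in the same direction in both experiments, against 61.8% of all probe sets tested. The calls rest on the same arrays, and opposite changes average out, so calling itself favours equal signs. This agreement is therefore not a separate check of the calls. Changes are given as differences of log2(intensity + 165.2) after quantile normalisation, a scale that understates the change of weak genes, and each ± is the standard error of the fit with n = 2 arrays per group. On this scale 2 called probe sets passed a change of 1. Without the block 26 probe sets were called, and all 26 were among the 417. The count was 89 without the 480 min array of the second experiment, 139 without the 120 min array of the second experiment, 168 without the 120 min array of the first experiment and 451 without the 480 min array of the first experiment.

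**Figure D1:**
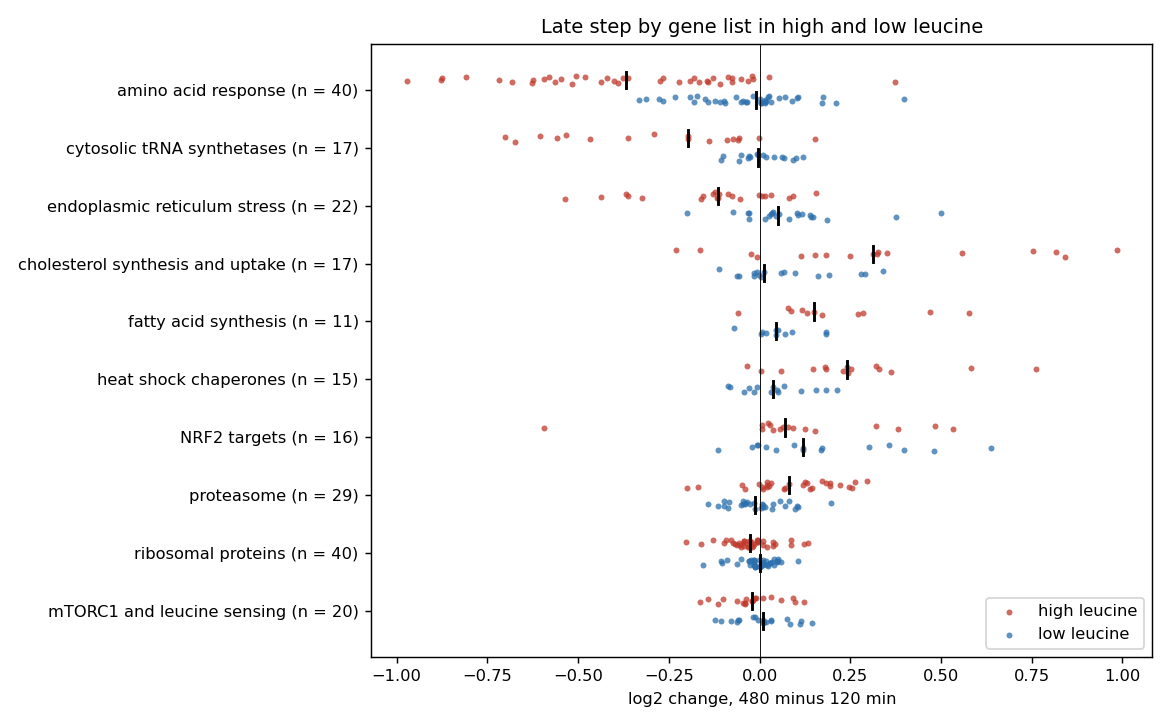
Change from 120 to 480 min (log2 scale) of each gene of 10 lists, in high leucine (red) and low leucine (blue). Each point is 1 gene and each black tick is the median of the list. The ticks of the amino acid response stand at -0.368 in high and -0.009 in low leucine, and those of cholesterol synthesis at 0.314 and 0.012.

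Of 40 genes of the amino acid response tested, 18 fell, 1 rose and 21 were not called, with a median change of -0.37 (background of genes that fell, 1.12%). The median over all genes tested was -0.007. Its median was -0.20 over the first experiment's arrays and -0.54 over the second's; both moved the same way, and the second moved further. In low leucine the same 40 genes had a median of -0.009 and none was called. The count of 18 became 7 without the 480 min array of the second experiment, 10 without the 120 min array of the first, and 2 without the block, which were CEBPG and MTHFD2.

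The regulators of the response differed in when they were low. ATF4 (probe set 200779_at), the transcription factor at its centre, read 3532 units (first experiment) and 3072 units (second) at 120 min, and 2613 and 2188 at 480 min. Both late arrays lay below both early ones, and both early arrays were already below the 0 min levels of 4625 and 4831. ATF4 fell by 0.48 ± 0.07 over the late step (limma, adjusted p = 0.00109), after a difference of -0.55 ± 0.07 between 120 and 0 min. The 2 differences share the 120 min arrays. In low leucine ATF4 read 4980 and 5565 at 120 min and 5281 and 4846 at 480 min, which overlap. CHAC1, which degrades glutathione, read 917.6 and 635.0 at 120 min and 907.5 and 608.2 at 480 min, a change of -0.05 ± 0.10. Its 0 min levels were 1390 and 1134, so that 120 min was 0.66 ± 0.10 below 0 min. DDIT3, the stress factor CHOP, went from 836.2 and 971.4 to 807.6 and 790.7, a change of -0.17 ± 0.10 that was not called, with 1316 and 1654 at 0 min. PMAIP1 (NOXA, a BH3-only death factor) stood at 1228 and 1224 at 120 min and 1246 and 1298 at 480 min, with 1566 and 1590 at 0 min. For CHAC1, DDIT3 and PMAIP1 the low levels were thus in place by 120 min, and the late step added nothing that passed the test.

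TRIB3, CEBPG and NUPR1 fell within the late step. TRIB3 (218145_at), a pseudokinase induced by ATF4 that feeds back on it, had 2070 and 2884 units at 120 min and 1176 and 1236 at 480 min. Both late arrays were low, while 0 min held 2329 and 3074. TRIB3 fell by 0.97 ± 0.11 (limma, adjusted p = 0.000183). CEBPG, a C/EBP partner of ATF4, fell from 537.4 and 577.6 to 258.5 and 231.6, by 0.81 ± 0.10 (limma, adjusted p = 0.000409). NUPR1, a small stress-induced chromatin protein, fell from 1523 and 2536 to 1078 and 1454, by 0.63 ± 0.12 (limma, adjusted p = 0.00682). The NUPR1 groups did not overlap, but its level differed between experiments and it was not called without the 120 min array of the first experiment (adjusted p = 0.0685) or the 480 min array of the second (adjusted p = 0.15). ATF3, a further stress factor, read 442.7 and 768.1 at 120 min and 475.1 and 456.3 at 480 min, which moved in opposite directions in the experiments.

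**Figure D2:**
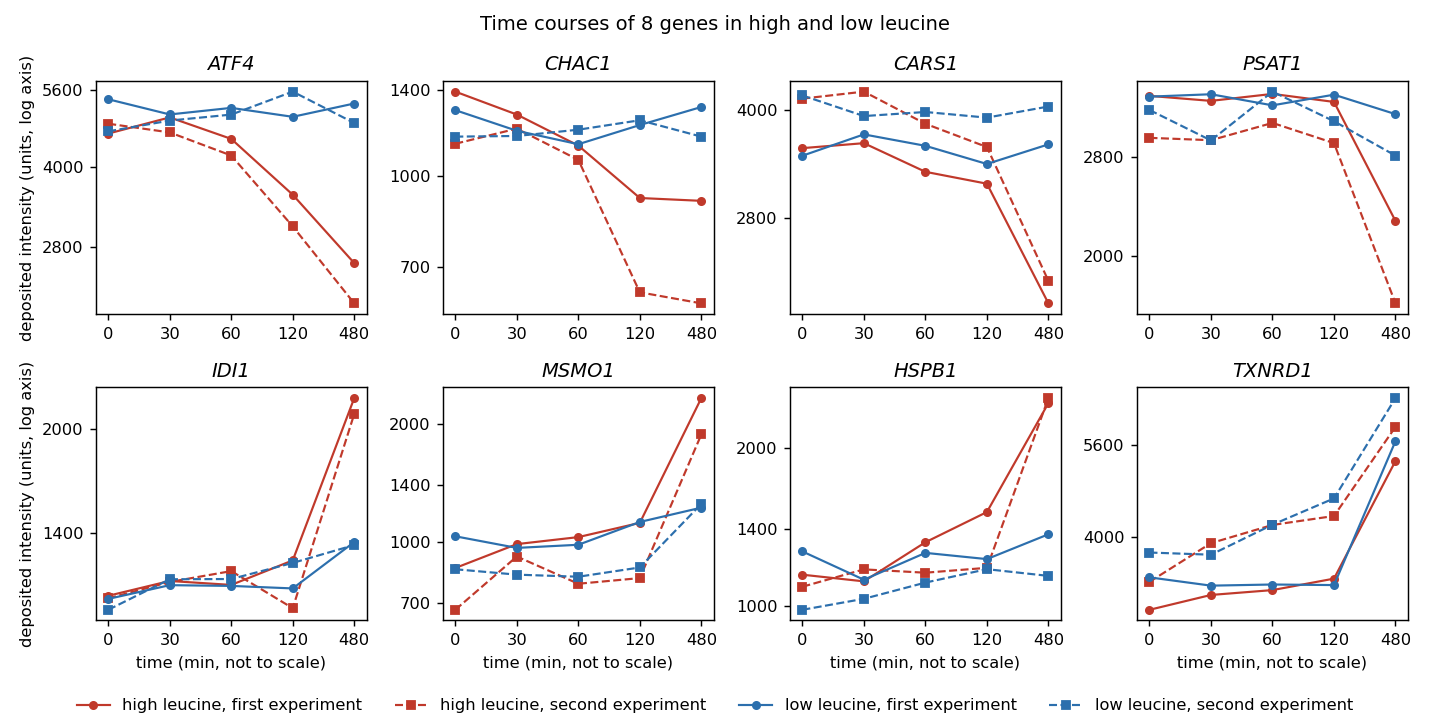
Deposited intensity (log axis) of 8 genes at 0, 30, 60, 120 and 480 min, with red for high and blue for low leucine, circles and full lines for the first experiment, and squares and broken lines for the second. ATF4 and CHAC1 are below their 0 min levels by 120 min in high leucine, CARS1 and PSAT1 drop and IDI1, MSMO1 and HSPB1 climb between 120 and 480 min, and TXNRD1 climbs in both leucine levels.

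Several enzymes of amino acid and one-carbon metabolism on the list fell over the late step, and others were not called. PSAT1 (220892_s_at), an enzyme of serine synthesis, read 3371 and 2931 at 120 min and 2250 and 1701 at 480 min, against 3441 and 2984 at 0 min. The 0 and 120 min levels were close and both late arrays were low, a fall of 0.68 ± 0.07 (limma, adjusted p = 3.16e-05). MTHFD2, the mitochondrial folate enzyme, fell from 2533 and 2380 to 1454 and 1146, by 0.88 ± 0.11 (limma, adjusted p = 0.000355). ASNS, asparagine synthetase, fell from 1623 and 1710 to 1113 and 1072, by 0.58 ± 0.11 (limma, adjusted p = 0.00655). ASNS was not called without the 120 min array of the first experiment (adjusted p = 0.091) or the 480 min array of the second (adjusted p = 0.15). PHGDH and SHMT2, also of serine and glycine metabolism, fell by 0.36 and 0.52, CBS of the transsulfuration pathway by 0.39, and PCK2, mitochondrial phosphoenolpyruvate carboxykinase, by 0.56. PYCR1 and ALDH18A1 of proline synthesis and PSPH, the last enzyme of serine synthesis, changed by -0.02, 0.03 and -0.02 and were not called. GFPT1, the entry enzyme of the hexosamine pathway, which is not on the list, fell from 1343 and 1536 to 886.2 and 814.6, by 0.69 ± 0.09 (limma, adjusted p = 0.00068).

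Among amino acid transporters the directions were mixed. SLC7A1, the cationic amino acid transporter CAT-1, fell from 1656 and 2125 to 1110 and 1281, by 0.62 ± 0.06 (limma, adjusted p = 5.46e-05). Of 4 other SLC7A1 probe sets, 1 was called, at -0.30, and the others changed by 0.21, 0.04 and -0.28. SLC7A11, the cystine importer, fell from 555.3 and 803.3 to 415.0 and 365.4, by 0.59 ± 0.13 (limma, adjusted p = 0.0194), and a second probe set gave -0.60. SLC7A11 was not called without either 120 min array or without the 480 min array of the second experiment (highest adjusted p = 0.307). SLC38A2, the SNAT2 importer of neutral amino acids, rose by 0.37 ± 0.07 (limma, adjusted p = 0.00931), the only member of the list that rose. SLC7A5 and SLC3A2, which together import leucine, changed by -0.55 and -0.14 and were not called (limma, adjusted p = 0.19 and 0.22).

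Secreted products on the list also fell. STC2, a secreted glycoprotein, went from 456.5 and 941.1 to 314.8 and 374.0, a fall of 0.72 ± 0.12 (limma, adjusted p = 0.00408), and its other probe set gave -0.69. VEGFA, the angiogenic growth factor, went from 603.3 and 1501 to 401.6 and 518.7, a fall of 0.88 ± 0.14 (limma, adjusted p = 0.00182). Groups did not overlap for either gene, and the second experiment dropped further (VEGFA by 1.31 against 0.45). The 3 other VEGFA probe sets gave -0.19, -0.34 and -0.37, so the size of the fall depends on the probe set. VEGFA was not called without the 480 min array of the second experiment (adjusted p = 0.0624), nor STC2 without that array or the 120 min array of the second experiment (highest adjusted p = 0.117). Of the 18 genes that fell, TRIB3, CEBPG, PSAT1, MTHFD2, SLC7A1 and ATF4 were among those called without each of the 4 arrays in turn.

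Aminoacyl-tRNA synthetases, which charge transfer RNA with amino acids, fell in 8 of 17 cases and rose in none (background of genes that fell, 1.12%). The median change was -0.198 in high and -0.004 in low leucine. CARS1 (212971_at), the cysteine enzyme, read 3134 and 3536 at 120 min and 2114 and 2276 at 480 min, with no overlap. It fell by 0.60 ± 0.06 (limma, adjusted p = 2.68e-05). SARS1, the serine enzyme, fell from 3260 and 3793 to 1971 and 2403, by 0.70 ± 0.07 (limma, adjusted p = 3.16e-05). GARS1, the glycine enzyme, fell from 3972 and 5233 to 2618 and 3257, by 0.67 ± 0.10 (limma, adjusted p = 0.000953). AARS1, the alanine enzyme, fell from 2286 and 2555 to 1520 and 1840, by 0.53 ± 0.05 (limma, adjusted p = 4.48e-05). YARS1, TARS1, EPRS1 and NARS1 fell by 0.56, 0.47, 0.36 and 0.29. LARS1, which charges leucine itself, changed by -0.06 ± 0.07 and was not called, and IARS1 and VARS1, for the other branched-chain amino acids, gave -0.20 and -0.07, also not called. The count of 8 became 5 without the 120 min array of the first experiment, 5 without the 480 min array of the second, and 1 without the block, which was CARS1. XPOT, the exporter of transfer RNA from the nucleus, fell by 0.51 ± 0.07 (limma, adjusted p = 0.00109).

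Promoters of the genes that fell were searched for TTGCATCA and TTTCATCA, forms of the composite C/EBP-ATF element, on both strands of the window from 250 bases before to 50 bases after the RefSeq start (build GRCh38.p14). Of 8280 genes tested, 6763 had such a promoter, and 67 of these (0.991%) held either form. Among genes that fell, 7 of 75 with a promoter held one (9.33%), and among genes that rose, 1 of 142 (0.704%). The 7 were AARS1, CARS1, NARS1 and TARS1 among synthetases and ASNS, HERPUD1 and SLC7A1 on the amino acid response list, which is 7 of the 21 members of both lists that fell and had a promoter (33.3%). A match is a run of letters, not a measured binding site. The whole window is shown for the 3 members of the amino acid response list, as an importer, an enzyme and an endoplasmic reticulum protein that fell together, with the match in capitals. SLC7A1 covers chr13:29595639-29595938 on the minus strand, ASNS chr7:97872359-97872658 on the minus strand and HERPUD1 chr16:56931892-56932191 on the plus strand.
SLC7A1: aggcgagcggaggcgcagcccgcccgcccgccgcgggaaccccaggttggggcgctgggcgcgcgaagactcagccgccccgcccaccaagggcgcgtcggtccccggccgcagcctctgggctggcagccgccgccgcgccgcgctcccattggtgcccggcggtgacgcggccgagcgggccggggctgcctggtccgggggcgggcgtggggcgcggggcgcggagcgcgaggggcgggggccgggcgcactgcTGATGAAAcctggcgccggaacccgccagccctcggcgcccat
ASNS: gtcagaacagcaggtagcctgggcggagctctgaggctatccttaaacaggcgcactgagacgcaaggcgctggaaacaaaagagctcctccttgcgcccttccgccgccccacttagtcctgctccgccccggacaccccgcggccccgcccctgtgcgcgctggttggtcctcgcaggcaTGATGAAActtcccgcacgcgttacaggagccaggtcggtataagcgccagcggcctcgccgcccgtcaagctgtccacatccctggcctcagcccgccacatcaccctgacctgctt
HERPUD1: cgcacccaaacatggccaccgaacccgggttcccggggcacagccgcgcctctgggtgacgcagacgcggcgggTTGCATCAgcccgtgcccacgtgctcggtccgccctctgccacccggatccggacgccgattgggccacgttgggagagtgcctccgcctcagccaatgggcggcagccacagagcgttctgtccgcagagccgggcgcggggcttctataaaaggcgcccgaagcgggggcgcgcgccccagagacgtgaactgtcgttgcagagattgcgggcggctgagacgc

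In SLC7A1 and ASNS the match is TTTCATCA read on the other strand, so it appears as TGATGAAA, and in HERPUD1 it is TTGCATCA as written. Among synthetases that fell, 4 of 7 with a promoter held TTGCATCA (57.1%) and none held TTTCATCA. The stretches around these 4 matches, with up to 30 bases on each side, are shown to compare their neighbourhoods; they were chosen after the shares were seen. AARS1 covers chr16:70289656-70289723 (minus strand), CARS1 chr11:3057388-3057455 (minus), NARS1 chr18:57621787-57621852 (minus) and TARS1 chr5:33440937-33441004 (plus). NARS1 holds the element on the other strand, as TGATGCAA, and the other stretches hold it as written.
AARS1: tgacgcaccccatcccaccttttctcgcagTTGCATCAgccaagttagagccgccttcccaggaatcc
CARS1: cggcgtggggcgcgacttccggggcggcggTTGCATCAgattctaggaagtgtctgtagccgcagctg
NARS1: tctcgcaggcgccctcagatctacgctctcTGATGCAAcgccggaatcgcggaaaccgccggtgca
TARS1: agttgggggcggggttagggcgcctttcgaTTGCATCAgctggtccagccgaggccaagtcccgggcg

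The low leucine arrays at the same times, which the high leucine step does not use, gave a test of whether the step differed between leucine levels. Of all genes tested, the step was higher in high leucine for 8 (0.0966%) and lower for 15 (0.181%). Of the 15, 10 were on the amino acid response or synthetase lists: TRIB3, MTHFD2, STC2, SLC7A11, SLC7A1 and PSAT1, and CARS1, SARS1, AARS1 and TARS1. TRIB3 in low leucine read 2507 and 4094 at 120 min and 2376 and 3906 at 480 min, which overlap. Its step was lower in high than in low leucine by 0.94, with a 95% interval of the difference from -1.28 to -0.60 (limma, adjusted p = 0.0194). SLC7A11 in low leucine read 767.2 and 1054 at 120 min and 1217 and 1253 at 480 min, the opposite direction to high leucine, and the steps differed by -0.99 (-1.38 to -0.60). The CARS1 steps differed by -0.70 (-0.87 to -0.53; limma, adjusted p = 0.00171). For ATF4 the difference was -0.45 (-0.65 to -0.24), which was not called (limma, adjusted p = 0.091), and for ASNS -0.30 (-0.62 to 0.01). By probe set this test called 31, 12 higher and 19 lower, a balance that turned to 23 higher and 15 lower on values as deposited and 19 higher and 11 lower after median centring. The count was 7 and 9 without the low leucine 120 min array of the first and second experiment, 16 without the low leucine 480 min array of the first, 16 and 12 without the high leucine 120 or 480 min array of the second, and 75 without the high leucine 480 min array of the first. Without the block no probe set was called in this test by limma. In that fit 486 had an unadjusted p under 0.05, where evenly spread p-values would give 666.5. It leaves the difference between experiments in its spread, so its p-values need not be evenly spread even where nothing changes.

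**Figure D3:**
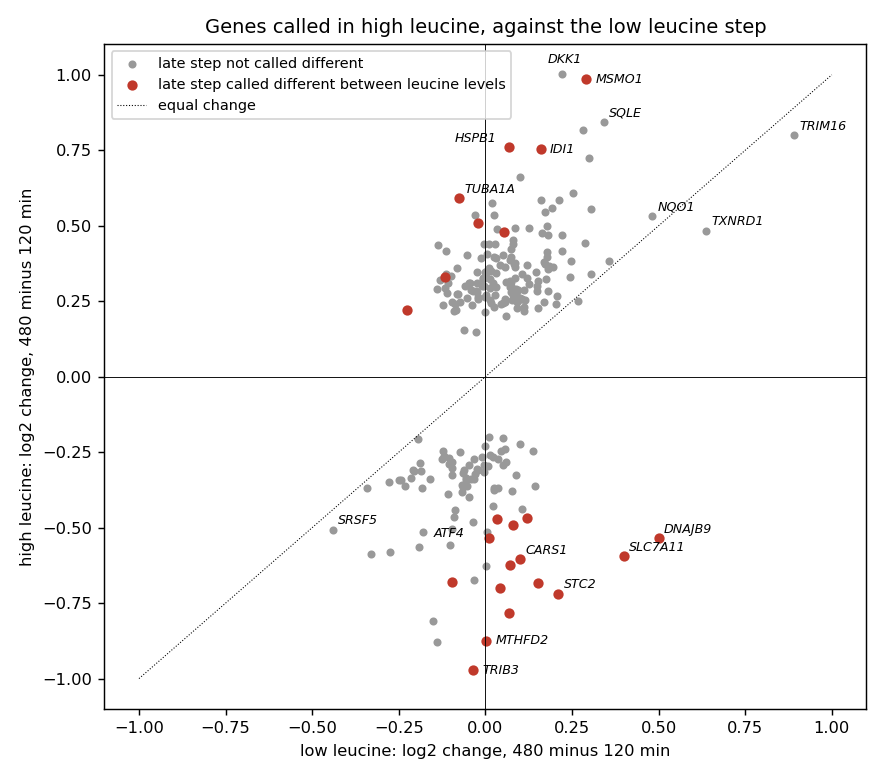
Change from 120 to 480 min (log2 scale) in low leucine (horizontal axis) and high leucine (vertical axis) of the 258 genes called in high leucine. Red points are genes whose step differed between leucine levels in its own test and the dotted line marks equal change. Most genes spread along the vertical axis near 0 in low leucine, while TRIM16, NQO1 and TXNRD1 lie near the line.

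Genes of endoplasmic reticulum stress, which help fold and clear secretory proteins, fell in 5 of 22 cases and rose in none (background of genes that fell, 1.12%). The list's median was -0.114 in high and 0.05 in low leucine. DNAJB9, a co-chaperone of that compartment, went from 1646 and 1643 to 1144 and 1099 in high leucine and from 1275 and 1481 to 1946 and 2021 in low leucine. The groups did not overlap in either medium and moved in opposite directions. In high leucine the fall was 0.54 ± 0.12 (limma, adjusted p = 0.0192), and in low leucine a change of 0.50 ± 0.12 was not called (limma, adjusted p = 0.228). High leucine held 1037 and 1081 at 0 min, so its late levels were near the 0 min levels. Its 120 min levels stood above 0 min by 0.54 ± 0.12, which was not called (limma, adjusted p = 0.0709). The difference of the steps was -1.03 (-1.38 to -0.69; limma, adjusted p = 0.0129). HERPUD1, which also stands on the amino acid response list, fell from 1595 and 2056 to 1354 and 1300, by 0.44 ± 0.09. XBP1, which drives the unfolded protein response, fell from 1119 and 1260 to 927.7 and 872.4, by 0.37 ± 0.08. HSPA5, the main chaperone of the compartment (BiP), fell from 4335 and 4914 to 3844 and 3544, by 0.36 ± 0.09. These calls depended on single arrays: the 5 became 1 without either 120 min array, 0 without the 480 min array of the second experiment and 0 without the block.

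Cholesterol synthesis and uptake genes rose in 9 of 17 cases and fell in none (background of genes that rose, 1.99%), with a median of 0.31 in high and 0.012 in low leucine. IDI1 (204615_x_at), which isomerises the isoprenoid precursor, read 1274 and 1081 at 120 min and 2226 and 2108 at 480 min. Both late arrays were high and 0 min held 1128 and 1118, close to those at 120 min. The rise was 0.75 ± 0.06 (limma, adjusted p = 1.67e-05), with 0.80 from a second probe set. MSMO1 (209146_at), a sterol methyl oxidase, rose from 1119 and 808.3 to 2334 and 1884, by 0.98 ± 0.08 (limma, adjusted p = 1.67e-05). SQLE, squalene epoxidase, a rate-limiting enzyme of the pathway, rose from 1083 and 994.8 to 1877 and 2261, by 0.84 ± 0.08 (limma, adjusted p = 3.7e-05), and its other probe sets rose by 0.40 and 0.27. DHCR7, the last enzyme of the pathway, rose from 985.8 and 856.9 to 1413 and 1510, by 0.56 ± 0.07 (limma, adjusted p = 0.000195). NSDHL, EBP, HMGCS1 and LSS rose by 0.35, 0.33, 0.33 and 0.31. MVK, MVD and PMVK, the kinases and decarboxylase of the mevalonate segment, changed by -0.01, -0.02 and -0.16 and were not called.

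INSIG1, which retains the SREBP factors in the endoplasmic reticulum when sterol is plentiful, rose from 1086 and 337.4 to 1455 and 1071, by 0.82 ± 0.16 (limma, adjusted p = 0.01). Its groups overlapped, since the second experiment started from a lower level and climbed further, by 1.31 against 0.33. Over both leucine levels its late step differed between experiments (0.68 ± 0.12; limma, adjusted p = 0.025), a call lost without any 1 of the 4 high leucine arrays (adjusted p from 0.203 to 0.218) or either low leucine 120 min array (adjusted p = 0.0513 and 0.0519). INSIG1 was not called without the 120 min or the 480 min array of the second experiment (adjusted p = 0.141 and 0.142). The count of 9 sterol genes became 5 without the 120 min array of the second experiment and 2 without the block, which were IDI1 and SQLE. The steps of MSMO1 and IDI1 differed between leucine levels, by 0.69 (0.44 to 0.95; limma, adjusted p = 0.0194) and 0.59 (0.40 to 0.78; limma, adjusted p = 0.00939). In low leucine MSMO1 read 1125 and 860.5 at 120 min and 1224 and 1251 at 480 min, and SQLE 1111 and 1028 and then 1316 and 1441. For SQLE the difference of the steps was 0.50 (0.25 to 0.75) and was not called.

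Fatty acid synthesis genes rose in 4 of 11 cases (background of genes that rose, 1.99%). FADS2, a desaturase, rose from 1354 and 811.2 to 1744 and 1664, by 0.58 ± 0.12 (limma, adjusted p = 0.0146). FASN, fatty acid synthase, rose from 716.3 and 672.1 to 980.2 and 1108, by 0.47 ± 0.11 (limma, adjusted p = 0.0318). ACLY, which makes cytosolic acetyl-CoA, and SREBF1, the SREBP factor of lipogenic genes, rose by 0.28 and 0.27. The other ACLY probe sets gave 0.106 and 0.259 and were not called. SCD and ACACA changed by 0.15 and 0.17 and were not called. The 4 calls became 1 without the 120 min array of the first experiment and 0 without the 120 min array of the second, without the 480 min array of the second or without the block. Among the 8 sterol genes that rose and had a promoter, 7 held CCAAT, the core of the NF-Y site (87.5%), against 37.2% of all 6763 promoters. The share was 45.8% among all genes that rose and 61.9% among the amino acid response and synthetase genes that fell, so it was also above that of all promoters outside the sterol genes.

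Heat shock chaperones rose in 5 of 15 cases and fell in none (background of genes that rose, 1.99%), with a median of 0.241 in high and 0.038 in low leucine. HSPB1 (201841_s_at), the small heat shock protein HSP27, read 1511 and 1184 at 120 min and 2433 and 2487 at 480 min. Both late arrays were well above both early ones, a rise of 0.76 ± 0.09 (limma, adjusted p = 0.000155). HSPH1, a nucleotide exchange factor of HSP70, rose from 1657 and 1863 to 2744 and 2920, by 0.58 ± 0.07 (limma, adjusted p = 0.000445). HSPE1, the mitochondrial HSP10, HSPA2 and HSP90AA1 rose by 0.36, 0.32 and 0.24. The other HSP90AA1 probe sets changed by 0.311, 0.311 and 0.265 and were not called. HSPD1, the partner of HSPE1, changed by -0.03 and was not called. HSPA9, the mitochondrial HSP70, was not on the list and fell. In low leucine HSPB1 read 1230 and 1177 and then 1371 and 1143, and the steps differed by 0.69 (0.43 to 0.95; limma, adjusted p = 0.0229). The 5 became 2 or 3 without either 120 min array or the 480 min array of the second experiment, 8 without the 480 min array of the first, and 1 without the block, which was HSPH1.

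TUBA1A, an alpha-tubulin, rose from 1057 and 1070 to 1527 and 1967, by 0.59 ± 0.09 (limma, adjusted p = 0.00109), and its step differed from that in low leucine (by 0.67, 0.41 to 0.92; limma, adjusted p = 0.0257). Alpha-tubulin genes are close copies, so its probe sets may read others of the family. Of 18 targets of YAP and SRF tested, VCL (vinculin) and MYL9 (a myosin light chain) rose, by 0.40 and 0.27 (background of genes that rose, 1.99%). TPM1, also on the list, was not called on its strongest probe set (0.26). Its other probe sets gave 0.31, not called, and 0.39, called (limma, adjusted p = 0.0278). Over both leucine levels, 3 of the 18 had a lower late step in the second experiment than in the first. Of 27 extracellular matrix genes 1 rose, against the same background. This was LOXL1, a collagen and elastin cross-linking enzyme, which rose from 881.1 and 1098 to 1449 and 2010, by 0.66 ± 0.11 (limma, adjusted p = 0.004). LOXL1, VCL and MYL9 were each not called without at least 1 of the arrays, the 480 min array of the second experiment among them for all 3 (adjusted p = 0.113, 0.229 and 0.102), and without the block neither list held a call.

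The largest rise outside these groups was DKK1, a secreted inhibitor of WNT signalling, which went from 630.3 and 773.9 to 1196 and 2167. The late arrays did not overlap the early ones, and the rise was 1.002 ± 0.127 (limma, adjusted p = 0.000429), with 0.22 ± 0.13 in low leucine, not called. NR2F1, an orphan nuclear receptor, rose from 944.8 and 807.9 to 1395 and 1814, by 0.72 ± 0.10 (limma, adjusted p = 0.00114). PHLDA2, an imprinted growth-restraining gene, rose from 1101 and 859.7 to 1803 and 1440, by 0.61 ± 0.09 (limma, adjusted p = 0.000943). CAMTA2, a transcription coactivator, fell from 1143 and 1548 to 600.0 and 844.9, by 0.78 ± 0.10 (limma, adjusted p = 0.000414). Its step differed from that in low leucine by -0.85 (-1.15 to -0.55; limma, adjusted p = 0.018), whereas the DKK1 difference of 0.78 (0.40 to 1.17) was not called.

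NRF2 targets defend against oxidants and electrophiles. In high leucine 3 of 16 rose and 1 fell, SLC7A11 (background 1.99% higher and 1.12% lower), and in low leucine 2 rose (background 0.0362% higher and 0.0121% lower). Without the block none of the 16 was called in high leucine. TXNRD1 (201266_at), thioredoxin reductase, read 3434 and 4318 at 120 min and 5281 and 5983 at 480 min in high leucine, and 3354 and 4605 and then 5679 and 6647 in low leucine. All late arrays lay above all early arrays. It rose by 0.48 ± 0.06 in high and 0.64 ± 0.06 in low leucine (limma, adjusted p = 0.000429 and 0.000334). NQO1, a quinone reductase, rose from 1243 and 1111 to 1887 and 1793 in high leucine and from 1189 and 1198 to 1765 and 1665 in low leucine, by 0.53 ± 0.08 and 0.48 ± 0.08 (limma, adjusted p = 0.00109 and 0.0337). GCLM, a subunit of the glutathione-making ligase, rose by 0.38 ± 0.07 in high leucine and changed by 0.36 ± 0.07 in low leucine, not called; the rise was lost without the 120 min array of the first experiment or the 480 min array of the second (highest adjusted p = 0.117). TRIM16, a ubiquitin ligase that is not on the list, rose from 617.3 and 709.5 to 1226 and 1386 in high leucine and from 615.6 and 612.6 to 1368 and 1202 in low leucine, by 0.80 ± 0.11 and 0.89 ± 0.11 (limma, adjusted p = 0.00068 and 0.00217). The difference of the steps was -0.09 (-0.42 to 0.23) for TRIM16, -0.15 (-0.34 to 0.03) for TXNRD1 and 0.05 (-0.18 to 0.28) for NQO1, and none was called.

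Only 4 genes were called in low leucine over this step, these 3 and SLC30A1, a zinc exporter. SLC30A1 in low leucine fell from 838.2 and 1242 to 477.7 and 404.5, by 0.97 ± 0.12 (limma, adjusted p = 0.00277). In high leucine it read 769.7 and 1067 and then 700.9 and 587.6, a change of -0.43 ± 0.12 that was not called (limma, adjusted p = 0.0731). SRSF5, a splicing factor, fell in high leucine from 3331 and 2547 to 2104 and 2043, by 0.51 ± 0.07 (limma, adjusted p = 0.00132), and changed by -0.44 ± 0.07 in low leucine (limma, adjusted p = 0.0636). Across all probe sets the high and low leucine steps, which share no array, correlated at 0.189 over 13329 probe sets, and the first and second experiment's steps in high leucine at 0.415. Probe sets are not independent replicates, so no test was made of these values. Of the called low leucine genes, TXNRD1 was called without each of the 4 low leucine arrays in turn; TRIM16 was lost without the 120 min array of the second experiment (adjusted p = 0.124), SLC30A1 without that array (adjusted p = 0.134) or the 480 min array of the second experiment (adjusted p = 0.0653), and NQO1 without any 1 of the 4 (highest adjusted p = 0.398). By probe set 5 were called, 2 without the 120 min array of the second experiment and 8 without the 480 min array of the first. Without the block limma called none, with 361 probe sets at an unadjusted p under 0.05.

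Genes of the machinery that reads leucine and builds protein held no calls in some lists and a few in others. None of 20 genes of mTORC1 and leucine sensing, 40 ribosomal proteins or 24 ribosome biogenesis genes was called, with medians of -0.02, -0.03 and -0.04. Of the mTORC1 list, EIF4EBP1, a translation repressor targeted by the complex, and LAMTOR3, of its lysosomal anchor, changed by -0.14 and -0.17. NPM1, a nucleolar chaperone, was not called on its strongest probe set (-0.15), while another of its probe sets was, at -0.27 (limma, adjusted p = 0.02). Of 35 translation factors 1 rose and 3 fell (background 1.99% higher and 1.12% lower). EIF4E, the cap-binding protein, rose from 1506 and 1090 to 2238 and 1780, by 0.54 ± 0.10 (limma, adjusted p = 0.00845), and another probe set gave 0.32. EIF1, EIF3A and EIF2S2 fell by 0.31, 0.32 and 0.29. Of the other EIF1 probe sets 3 were called, at -0.49, -0.52 and -0.40, and 1 was not, at -0.25. The other probe sets of EIF3A (-0.04 and -0.06) and EIF2S2 (-0.02) were not called, so these 2 falls rest on 1 probe set each. Without the block EIF1 alone of the 35 was called. EIF1 was called in every fit that left out 1 array, while EIF4E was lost without either 120 min array or the 480 min array of the second experiment (highest adjusted p = 0.155). Of 29 proteasome genes 4 rose (background of genes that rose, 1.99%): PSME4, PSMD1, PSMB3 and PSMA2, by 0.30, 0.26, 0.26 and 0.22. None of these calls held without the 480 min array of the second experiment or without the block. The other probe sets of PSME4, PSMD1 and PSMA2 gave 0.071, 0.185 and 0.148 and were not called. Of 17 genes of branched-chain amino acid breakdown 1 fell (background of genes that fell, 1.12%): DLD, a subunit shared by several dehydrogenases, by 0.31. BCAT1 and BCAT2, which start that breakdown, changed by -0.10 and 0.10. EIF3A, EIF2S2 and DLD were not called without the 480 min array of the second experiment (adjusted p = 0.184, 0.278 and 0.229).

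Further lists held few calls, against a background of 1.99% higher and 1.12% lower, and no list was tested against it. Among 36 DNA replication genes PCNA rose by 0.31 and PRIM1 and MCM7 fell by 0.37 and 0.27, and among 39 mitosis genes ASPM rose by 0.40. Among 17 p53 targets XPC and TNFRSF10B fell by 0.27 and 0.29, and the other TNFRSF10B probe sets, at -0.132 and -0.233, were not called. Among 29 genes of hypoxia and glycolysis PGAM1 rose by 0.16, and among 12 clock genes CRY1 rose by 0.38. Without the block none of these lists, nor that of branched-chain amino acid breakdown, held a call. None of these 8 genes was called without the 480 min array of the second experiment, except ASPM, which was lost without each of the other 3 arrays. Oxidative phosphorylation (44 genes), autophagy and lysosome (22), interferon (19), FOXO and fasting (13), NF-kB and chemokine (19), MAP kinase feedback (11) and TGF-beta, BMP and NOTCH genes (12) had none called. Of cell type markers, KRT19, a biliary keratin, rose from 2344 and 3662 to 3169 and 5751 (0.44 ± 0.08), and CD14, a monocyte marker, from 832.0 and 811.9 to 1195 and 1213 (0.44 ± 0.10). Both rises were lost without the 120 min or the 480 min array of the second experiment (adjusted p = 0.0702 and 0.115 for KRT19), and that of CD14 also without the 120 min array of the first (highest adjusted p = 0.217), and neither was called without the block. None of 10 hepatocyte markers and none of 13 stellate and fibroblast markers was called. In bulk RNA, more cells of a type and more RNA per cell cannot be told apart. The summed intensity of 12 biliary and epithelial markers was 14960 and 25370 at 120 min and 16750 and 30860 at 480 min.

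Growth-response genes behaved differently in the experiments. Over both leucine levels, the late step was higher in the second experiment for 8 genes (0.0966%) and lower for 37 (0.447%), in a fit whose means were separate for every experiment and time. By probe set 66 were called, and 36 or 35 without the high leucine 480 min array of the first or second experiment. Of 24 immediate early genes 6 were among the 37 and of 11 MAP kinase feedback genes 3. BHLHE40, a repressor of the clock, read 436.5 units at 120 min and 758.6 at 480 min in the first experiment, and 2127 and 870.9 in the second. The experiments moved in opposite directions and were near each other at 480 min. In low leucine BHLHE40 went from 540.9 to 597.0 in the first experiment and from 2682 to 640.4 in the second, so the array at 120 min was the high one in both media. The second experiment's step minus the first's was -1.81 ± 0.13 (limma, adjusted p = 3e-05). On another BHLHE40 probe set it was -0.62, so its size depends on the probe set.

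CCN2, a matricellular growth factor, went from 723.1 to 1370 in the first experiment and from 3235 to 1739 in the second. KLF10, a TGF-beta induced zinc finger factor, went from 363.7 to 485.6 and from 1269 to 562.6. JUNB, an AP-1 subunit, went from 946.3 to 991.4 and from 2408 to 965.9, IER3 from 1357 to 2043 and from 2709 to 1393, and TIPARP from 1035 to 1183 and from 5304 to 1230. In each of these genes the second experiment's 120 min array was the highest of the 4. None of the 24 immediate early genes was called in high leucine, where their median was 0.031 for the first experiment's arrays and -0.252 for the second's. EGR1 read 861.6 and 2049 at 120 min and 498.2 and 478.8 at 480 min, a change of -1.22 ± 0.59 that was not called (limma, adjusted p = 0.331). Another EGR1 probe set changed by -0.26 and was not called (limma, adjusted p = 0.848). MYC changed by 0.13 ± 0.15 and FOS by -0.23 ± 0.48, also not called.

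**Figure D4:**
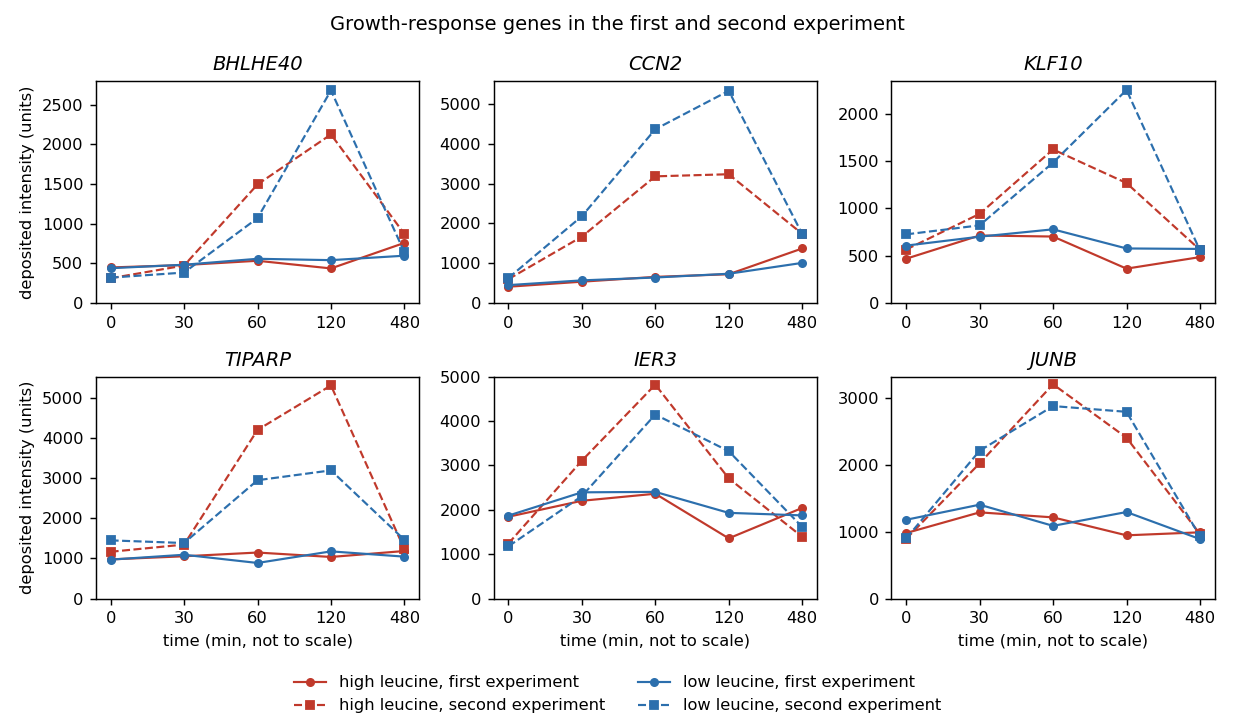
Deposited intensity of BHLHE40, CCN2, KLF10, TIPARP, IER3 and JUNB at 0, 30, 60, 120 and 480 min, with red for high and blue for low leucine, circles and full lines for the first experiment, and squares and broken lines for the second. In the second experiment the genes peak at 60 or 120 min in both media and drop by 480 min, while the first experiment's lines stay flatter.

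**Figure D5:**
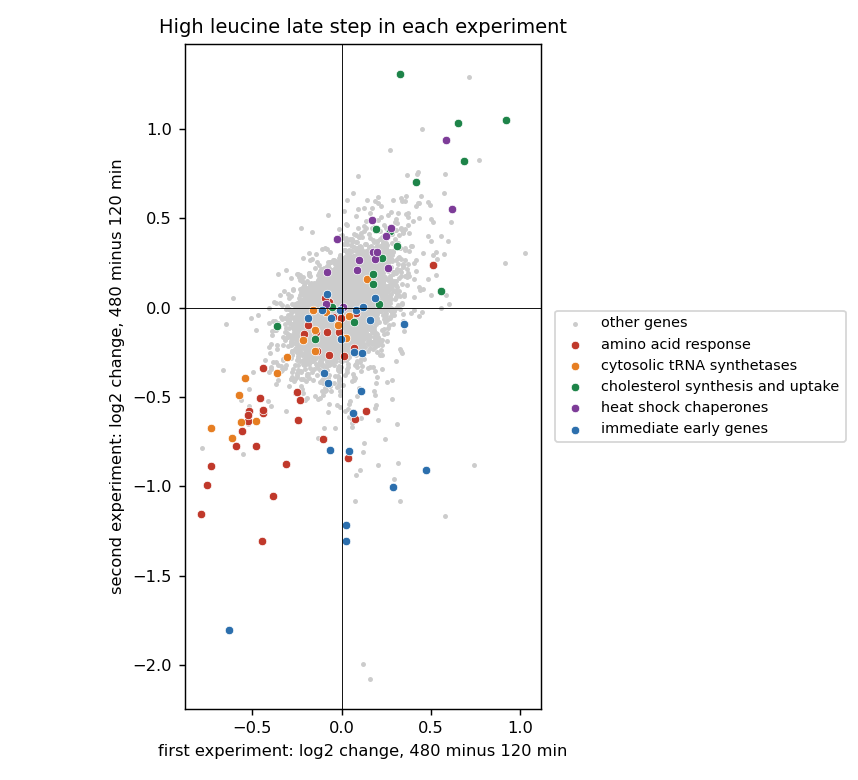
Change from 120 to 480 min in high leucine (log2 scale) in the first experiment (horizontal axis) and the second experiment (vertical axis), 1 point per gene, with 5 lists in colour. Amino acid response and synthetase genes lie at the lower left and sterol genes at the upper right, while several immediate early genes lie below 0 in the second experiment and near or above 0 in the first.

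Genes with opposite or unequal steps in the experiments bear on the high leucine step through the block, which assumes a constant shift between experiments. With a separate mean for each experiment and time, 743 probe sets were called in place of 417. Of the 258 genes called with the block, 257 were called there too. That fit takes step differences between experiments that both media share out of the error. Its p-values therefore do not measure agreement between experiments. TIPARP was among its calls (limma, adjusted p = 0.00341), with high leucine changes of 0.12 (first experiment) and -1.99 (second). Of the amino acid response genes, CEBPB, a C/EBP factor, was the 1 member whose late step differed between experiments, with high leucine changes of 0.14 (first experiment) and -0.58 (second).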

How the data were processed

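THLE-3 RNA was hybridised to 20 Affymetrix HG-U133 A arrays. The deposited values are linear intensity values of 22215 probe sets; the authors' summary and scaling method is not analysed here, since the sources used here do not state it. To each value 165.2 was added (the 10th percentile of an array, as the median of the arrays), log2 was taken, and arrays were quantile normalised. A filter at the 40th percentile of mean signal left 13329 probe sets and 8280 genes, each gene read from its probe set of highest mean. Of all probe sets 19065 carried 1 symbol, 1043 several and 2107 none; only the first kind was named.

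limma 3.58.1 (R 4.3.3) fitted 10 group means and an experiment block (9 residual degrees of freedom; 5 in the test of the experiments), with an intensity trend and Benjamini-Hochberg adjustment over all probe sets kept, two-sided. The experiments pair the arrays, as the titles give them: deviations from group means of same-numbered arrays correlated at 0.808 to 0.928. Data were simulated for the high leucine step over 13329 probe sets, as independent noise around the means of the block model. The block recovered 92 of 100 changes of 0.5 and called 7 unchanged probe sets, and without it 47 were recovered. The shift between experiments was constant in the simulation by construction, so the better recovery with the block was built in. The simulation therefore cannot show how the block performs for genes whose step differs between experiments.

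The members and lists were chosen with earlier results of these data known. Named genes were up to 12 largest rises and falls called with the same sign in both experiments, up to 6 each way in the other tests (the 5 of smallest p where fewer passed), up to 4 of each of 32 lists by p, and 15 genes whatever their p; names beyond that were chosen after their values were seen. Alternatives changed the pseudocount 4-fold, the scaling, filter, probe set choice, trend, weights, arrays used and block. The number of arrays limits the precision.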

Additional observations from a re-analysis of the deposited data

Results flagged for a closer look

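The step from 120 to 480 min differed between leucine levels, in the test of the difference itself, for 31 probe sets. The 6 named genes with a higher step in high than in low leucine were MSMO1 (0.694), HSPB1 (0.693), TUBA1A (0.669), IDI1 (0.593), PRP4K, a splicing kinase (0.53), and ABHD17A, a depalmitoylating enzyme (0.446), all on the log2 scale. The 6 with a lower step were DNAJB9 (-1.035), SLC7A11 (-0.993), TRIB3 (-0.937), STC2 (-0.931), MTHFD2 (-0.879) and CAMTA2 (-0.851). PRP4K went from 649.9 and 622.3 to 967.9 and 1021 units in high leucine and from 715.6 and 702.4 to 686.9 and 709.9 in low leucine. ABHD17A went from 1514 and 1461 to 1792 and 1846 in high leucine and from 1527 and 1565 to 1280 and 1278 in low leucine. None of the 12 was called without the block, and each lost its call without at least 1 of the 8 arrays.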

How the results depend on the processing

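Scaling turned several summaries. The test between leucine levels held 12 higher and 19 lower probe sets. It held 23 and 15 on deposited values and 19 and 11 after median centring. Low leucine calls went from 4 higher and 1 lower to 3 and 2 on deposited values and 3 and 4 after centring. The translation factor median went from -0.023 to 0.021 and 0.018. The high leucine median over all probe sets went from -0.005 to 0.012 and 0.009. In high leucine 417 probe sets were called; the count moved to 26 with no replicate block, 273 with 1 probe set per gene (fewer tested), 204 on the high leucine arrays, 159 on the 4 arrays alone (1 residual degree of freedom), 743 with separate means per experiment and time, and 89 to 451 when 1 array was left out. The difference between leucine levels, 31 probe sets, went to 0 with no replicate block, 11 on the 120 and 480 min arrays, and 7 to 75 with 1 array left out. The low leucine count of 5 went to 0 with no replicate block and 2 to 8 with 1 array left out. The difference between experiments, 66, ran from 35 to 81 with 1 array left out. The cause of these moves was not tested. Pseudocount, scaling, filter, trend and weights kept each count within 1.5 times. Of 64 named genes called in high leucine, all 64 kept their direction in every setting that tested them; 26 kept their call without each array in turn and 9 with no replicate block. Where 1 array was left out, the lone array of its group is assumed to vary like the other groups. With 2 arrays a group, small changes could not be told from none.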

Other observations

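The following genes were chosen after their values were seen. KPNA2 and KPNA3, importins that carry proteins into the nucleus, rose over the late step in high leucine, by 0.33 ± 0.05 and 0.26 ± 0.05 (limma, adjusted p = 0.00334 and 0.0175). KPNB1, their partner, was read by several probe sets that disagree: the strongest changed by 0.01 ± 0.06, not called, while 213574_s_at rose by 0.37 ± 0.07 (limma, adjusted p = 0.00596). The KPNA2 step differed between leucine levels by 0.45 ± 0.08 (limma, adjusted p = 0.0197).

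PRDX1, a peroxiredoxin, rose by 0.50 ± 0.05 (limma, adjusted p = 2.52e-05), and TM4SF1, a membrane protein, rose on 3 probe sets, by 0.48, 0.59 and 0.67. HSPA9, the mitochondrial HSP70, fell by 0.49 ± 0.07 (limma, adjusted p = 0.000922), while the heat shock chaperones HSPB1 and HSPH1 rose. CIRBP, a cold-inducible RNA-binding protein, fell by 0.59 ± 0.12 (limma, adjusted p = 0.0116), and IMPDH2, an enzyme of guanine nucleotide synthesis, by 0.40 ± 0.06 (limma, adjusted p = 0.00109).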
